A study of Mus musculus with 6 samples.

Results

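The genes described here were 10 regulators of RNA processing: *Rbfox1*, *Rbfox2* and *Rbfox3*, *Elavl2*, *Elavl3* and *Elavl4*, *Celf4*, *Nova2*, and the Musashi genes *Msi1* and *Msi2*. They were picked by symbol, and all 10 were found among the 11339 genes measured. The study asked how loss of the histone methyltransferase MLL1 alters gene expression in the mouse retina, and sequenced RNA of whole retinas at postnatal day 14 (P14) from 3 *Mll1KO* and 3 WT samples of 2 retinas each. *Mll1KO* mice are MLL1 fl/fl and carry a Cre transgene: both *Mll1* alleles (*Kmt2a* in current naming) are floxed, and Cre recombinase is expressed in retinal progenitor cells. WT mice are labelled wild type, and both groups are labelled with the strain C57Bl6/J and the age P14. The genotypes therefore also differ in Cre and in the floxed alleles, which cannot be told apart here from the loss of MLL1. Mice of both sexes were used, and sample letters a, b and c name replicates, whose values are given in that order. Expression was measured as RPKM, reads relative to the length of the gene and to the size of the library. The libraries held between 17961097 and 23836033 reads, and the lowest read count of any of the 10 genes in a library was 423, for *Elavl4*.

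RNA-binding proteins of these families recognize short motifs in transcripts and set which exons are joined, how stable an mRNA is and where it is used. RBFOX proteins bind GCAUG near alternative exons, neuronal ELAVL (Hu) proteins bind U-rich stretches, CELF proteins bind GU-rich stretches, and NOVA proteins bind YCAY clusters. In the retina, RBFOX and neuronal ELAVL proteins are known from ganglion and amacrine cells, whereas Musashi proteins, which bind UAG, are known from progenitors, Muller glia and photoreceptors, where they promote the inclusion of photoreceptor exons. The data give a single value per gene, so that splicing itself was not measured.

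The targeted gene *Kmt2a* (ENSMUSG00000002028) had an RPKM of 36.1, 36.9 and 34.6 in WT and of 22.9, 20.4 and 22.3 in *Mll1KO*. All *Mll1KO* values lay below all WT values, and their mean was 60.9% of WT, over a gene model that includes exons outside the floxed segment. The log2 fold change was -0.69 with a standard error of 0.05 (adjusted p = 2.77e-05, limma). Fold changes are on the log2(RPKM + 1) scale, which makes those of genes with low RPKM smaller, and p-values were adjusted by Benjamini-Hochberg over all genes, with a threshold of 0.05. The p-values weigh the difference of the group means against the spread among these samples, with variances moderated by a trend over all genes.

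Of the 10 regulators, *Nova2*, *Elavl3*, *Elavl4* and *Rbfox3* were lower in *Mll1KO*, 4 of 10, and the difference of the remaining 6 did not pass the test. None was called higher (0 with limma and 0 with limma-voom), with 1 higher gene, *Msi2*, at an unadjusted p of 0.0257. The count of lower genes was 2 without WT sample a or without *Mll1KO* sample c and 10 with libraries brought to an equal sum of rod genes, and TMM, RLE and upper-quartile factors each called 1 gene higher. Across all genes 23.3% were called with the deposited scaling and all 6 libraries, 14.5% lower and 8.81% higher. The share of all genes called lower was 10.8% without WT sample a and 9.29% without *Mll1KO* sample c. With an equal rod sum it was 83.5%. TMM, RLE and upper-quartile factors called 1262, 1276 and 1276 of all 11339 genes higher. The 4 called genes were among the 8 grouped here, by family, as regulators of inner neurons. Which cells express them was not measured in these data. The log2 fold changes of these 8 ran from -0.31 to -0.06 with a median of -0.15, beside a median of -0.03 over all genes. The *Mll1KO* values lay below the WT values without overlap in 5 of the 10 genes and above them in 1, compared with 26.5% and 14.6% of all genes. In RNA of whole retinas, fewer cells of a type and less RNA per cell cannot be told apart.

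**Figure D1:**
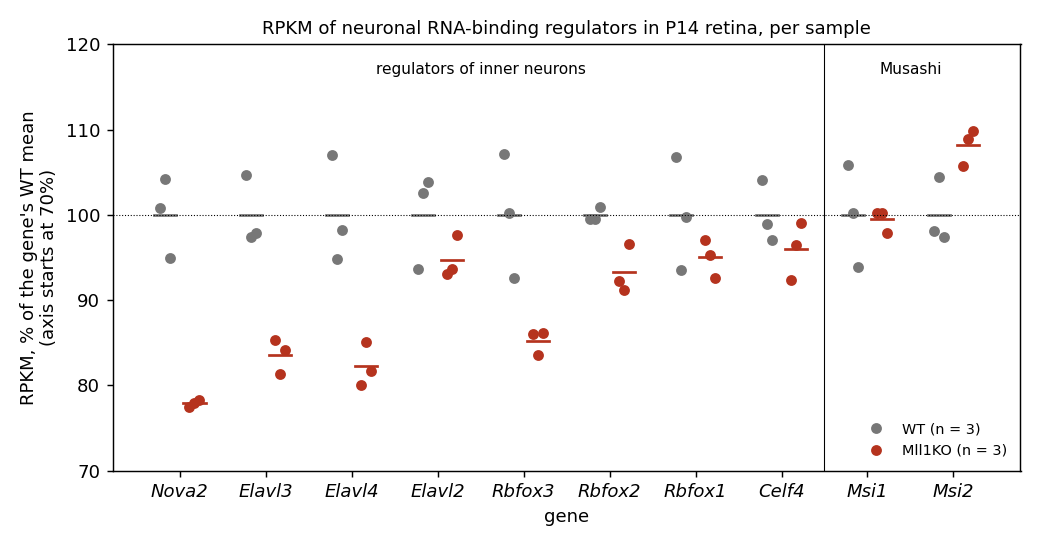
RPKM of each of the 10 genes in every sample, as a percentage of the mean of the 3 WT samples of that gene. Points are samples and short bars are means (n = 3 each); the *Mll1KO* samples of *Nova2*, *Elavl3*, *Elavl4*, *Rbfox3* and *Rbfox2* lay below all WT samples, and those of *Msi2* lay above them.

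*Nova2* (ENSMUSG00000030411), a KH-domain splicing factor, stood lowest relative to WT among the 10. Its RPKM was 7.31, 7.56 and 6.89 in WT and 5.62, 5.65 and 5.68 in *Mll1KO*. The *Mll1KO* samples were nearly alike, and each lay under every WT sample. The mean was 77.9% of WT, a log2 fold change of -0.31 with a standard error of 0.05 (adjusted p = 0.00248, limma). *Nova2* was called in all 15 alternative settings, with an adjusted p between 1.3e-05 and 0.0151. The lowest library held 854 reads of *Nova2*, for which the counting error alone is 3.42%. The gene lies on chromosome 7 from 18925888 to 18965319 on the plus strand in GRCm38, and 31.7% of its exon bases are also exons of *Gm26821* on the opposite strand. Use of strand in counting is not given in the sources used here, so that reads of *Gm26821* may be included in the *Nova2* values.

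*Elavl3* (ENSMUSG00000003410), encoding HuC, was the most abundant of the neuronal ELAVL genes. Its RPKM was 41.7, 38.8 and 39.0 in WT and 34.0, 32.4 and 33.5 in *Mll1KO*. Every *Mll1KO* sample was below every WT sample, with a mean at 83.5% of WT and a log2 fold change of -0.25 with a standard error of 0.04 (adjusted p = 0.00268, limma). The call was made in all 15 alternative settings, with an adjusted p of at most 0.0126. *Elavl4* (ENSMUSG00000028546), encoding HuD, had 5.72, 5.07 and 5.25 RPKM in WT and 4.28, 4.55 and 4.37 RPKM in *Mll1KO*. Its groups did not overlap either, and the mean was 82.3% of WT, a log2 fold change of -0.23 with a standard error of 0.06 (adjusted p = 0.0173, limma). Without WT sample a (adjusted p = 0.058, limma) or *Mll1KO* sample c (adjusted p = 0.0554, limma) *Elavl4* was not called, and its adjusted p ranged from 2.69e-05 to 0.058 over the alternatives.

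*Elavl2* (ENSMUSG00000008489), encoding HuB, was the least abundant of the 10 genes, at 2.86, 3.13 and 3.17 RPKM in WT and 2.84, 2.86 and 2.98 RPKM in *Mll1KO*. The groups overlapped, with WT sample a at the level of the *Mll1KO* samples. The log2 fold change was -0.06, with a 95% interval from -0.18 to 0.06 (adjusted p = 0.483, limma). Together *Elavl2*, *Elavl3* and *Elavl4* summed to 50.3, 47.0 and 47.5 RPKM in WT and to 41.1, 39.8 and 40.8 RPKM in *Mll1KO*, without overlap. *Elavl3* made up between 81.4% and 82.9% of that sum in the 6 libraries and *Elavl4* between 10.4% and 11.4%, both ranges shared by the genotypes. The share of *Elavl2* was 5.69%, 6.65% and 6.68% in WT and 6.91%, 7.19% and 7.30% in *Mll1KO*. No stretch of 50 bases in the transcripts of *Elavl2* or *Elavl4* is shared with another annotated gene, and 3.13% of those of *Elavl3* are, mostly with *Gm49318*, which overlaps it on the same strand.

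Among the RBFOX genes, *Rbfox3* (ENSMUSG00000025576), which encodes the neuronal antigen NeuN, had an RPKM of 8.16, 7.63 and 7.05 in WT and of 6.55, 6.36 and 6.56 in *Mll1KO*. The *Mll1KO* samples lay close together below the more widely spread WT samples. The mean was 85.2% of WT, a log2 fold change of -0.20 with a standard error of 0.06 (adjusted p = 0.0342, limma). *Rbfox3* was called in 6 of 15 alternative settings. It was not called with TMM, RLE or upper-quartile factors (adjusted p = 0.0713, 0.0748 and 0.0696, limma), nor without WT sample a or b (0.102 and 0.0962) or *Mll1KO* sample a, b or c (0.0568, 0.0903 and 0.0806). Its log2 fold change ranged from -0.47 to -0.13 over the alternatives and its adjusted p from 5.24e-05 to 0.102.

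*Rbfox2* (ENSMUSG00000033565), the RBFOX gene with the widest expression among tissues, was at 20.4, 20.4 and 20.7 RPKM in WT and at 18.9, 18.7 and 19.8 RPKM in *Mll1KO*. The groups did not overlap, but the difference, at 93.5% of WT, did not pass the test (log2 fold change -0.09, 95% interval -0.19 to 0.00, adjusted p = 0.131, limma). *Rbfox1* (ENSMUSG00000008658), whose gene body of 1526 kilobases is the longest of the 10, was at 24.2, 21.2 and 22.6 RPKM in WT and at 22.0, 21.6 and 21.0 RPKM in *Mll1KO*. Its groups overlapped (log2 fold change -0.07, 95% interval -0.19 to 0.05, adjusted p = 0.376, limma). The RBFOX genes summed to 52.8, 49.2 and 50.4 RPKM in WT and to 47.4, 46.7 and 47.4 RPKM in *Mll1KO*. *Rbfox3* was the smallest part of this sum, between 13.6% and 15.5% in the 6 libraries.

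*Celf4* (ENSMUSG00000024268), a regulator of mRNAs of excitatory neurons, had an RPKM of 85.0, 80.8 and 79.3 in WT and of 75.5, 78.8 and 80.9 in *Mll1KO*. The groups overlapped, with *Mll1KO* sample c above WT samples b and c (log2 fold change -0.06, 95% interval -0.16 to 0.04, adjusted p = 0.359, limma). The counting error at its lowest read number, 5806, is 1.31%.

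The Musashi gene *Msi1* (ENSMUSG00000054256) had an RPKM of 133, 126 and 118 in WT and of 126, 126 and 123 in *Mll1KO*. The *Mll1KO* values lay inside the range of WT (log2 fold change -0.01, 95% interval -0.11 to 0.10, adjusted p = 0.945, limma), and the sign turned to 0.03 with TMM, RLE or upper-quartile factors. *Msi2* (ENSMUSG00000069769) was at 30.8, 32.8 and 30.6 RPKM in WT and at 33.2, 34.2 and 34.5 RPKM in *Mll1KO*. Each *Mll1KO* sample was above each WT sample, at a mean of 108% of WT, but the difference did not pass the test (log2 fold change 0.11, 95% interval 0.02 to 0.21, adjusted p = 0.0857, limma). With TMM, RLE and upper-quartile factors *Msi2* was called higher (log2 fold change 0.14 in each, adjusted p = 0.0386, 0.0352 and 0.0377, limma), and with an equal rod sum it was called lower (-0.19, adjusted p = 0.00725, limma). Its adjusted p ranged from 0.00725 to 0.219 over the alternatives. The Musashi genes summed to 164, 158 and 148 RPKM in WT and to 159, 160 and 157 RPKM in *Mll1KO*, with overlap.

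The contrast between regulators of inner neurons and Musashi genes was also made within each library. The ratios of RPKM given here do not depend on how the libraries are scaled, while limma tested differences of log2(RPKM + 1) between a gene and a Musashi gene, which for genes of low RPKM are smaller than the log2 ratio and depend in part on the scaling. *Nova2* stood at 23.7%, 23.0% and 22.5% of the *Msi2* level in WT and at 16.9%, 16.5% and 16.4% in *Mll1KO*. *Elavl3* stood at 135%, 118% and 128% of *Msi2* in WT and at 102%, 94.5% and 96.9% in *Mll1KO*. Neither ratio overlapped between the genotypes. For ratios to *Msi1* or *Msi2*, the share of all genes without overlap was not computed. Relative to *Msi2*, 6 of the 8 regulators of inner neurons were called lower, as were 39.3% of all genes, with *Rbfox1* (adjusted p = 0.0506, limma) and *Elavl2* (adjusted p = 0.0564, limma) outside. Relative to *Msi1*, 2 of the 8 were called lower, *Nova2* (adjusted p = 0.0174, limma) and *Elavl3* (adjusted p = 0.0233, limma), against 6.53% of all genes. *Elavl4* and *Rbfox3* had ratios to *Msi1* without overlap that did not pass this test (adjusted p = 0.103 and 0.159, limma). The ratio of *Msi2* to *Msi1* was 23.1%, 26.1% and 26.0% in WT and 26.3%, 27.2% and 28.1% in *Mll1KO*, a difference that did not pass the test either (adjusted p = 0.392 relative to *Msi1* and 0.144 relative to *Msi2*, limma).

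In the order of RPKM in WT, *Msi1* came first (125 ± 7.69 RPKM, SD, n = 3), followed by *Celf4* (81.7 ± 2.92), *Elavl3* (39.8 ± 1.60), *Msi2* (31.4 ± 1.23), *Rbfox1* (22.7 ± 1.53) and *Rbfox2* (20.5 ± 0.197). *Rbfox3* (7.62 ± 0.555) and *Nova2* (7.26 ± 0.338) overlapped and could not be ordered, and *Elavl4* (5.35 ± 0.333) and *Elavl2* (3.05 ± 0.166) were lowest. *Msi1* exceeded 98.2% of all genes in mean RPKM in WT, *Nova2* 39.4% and *Elavl2* 12.9%. Such levels depend on the gene length used. For *Celf4* the length behind the RPKM was 3995 bases, 46.5% of the 8583 exon bases in the GENCODE vM21 annotation, over which its mean in WT would be 38.0 RPKM. For *Elavl3* it was 5027 of 6890 exon bases, over which the mean would be 29.1 RPKM, below *Msi2*. The percentages of WT are not affected by the length.

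Of 79 other RNA-binding regulators listed by family, 73 were measured, and 16 of them were lower and 3 higher in *Mll1KO* (21.9% and 4.11%, beside 14.5% and 8.81% of all genes), with a median log2 fold change of -0.08. The split was 11 lower and 5 higher with TMM or RLE factors, 9 lower and 5 higher with upper-quartile factors, and 69 lower and 1 higher with an equal rod sum. Of all genes, 10.2%, 9.93% and 9.97% were lower with TMM, RLE and upper-quartile factors, and 83.5% with an equal rod sum. In the same order, 1262, 1276, 1276 and 219 of the 11339 genes were higher. Among 25 further splicing regulators of neurons and muscle, 8 were lower (32.0%), with a median of -0.11. Of 12 SR proteins, which bind exonic enhancers in all cells, 3 were lower (25.0%, median -0.08). Of 21 hnRNP proteins 3 were lower (14.3%) and 1 higher (median -0.07), and of 15 RNA-binding proteins of translation and transport 2 were lower (13.3%) and 2 higher (median -0.07), shares of lower genes near that of all genes. The number called among the 73 was 19, and it was 9 without WT sample b, 11 without *Mll1KO* sample b and 12 without *Mll1KO* sample c. Over all genes 2643 were called, and 1704, 1953 and 1757 in these 3 fits.

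*Rbpms2*, an RNA-binding protein of ganglion cells, had the lowest log2 fold change among them. Its RPKM was 17.6, 17.4 and 17.7 in WT and 9.55, 8.66 and 8.78 in *Mll1KO* (log2 fold change -0.89, adjusted p = 5.27e-06, limma), and 12.4% of its stretches of 50 bases are shared with *Gm3470*. Its paralogue *Rbpms*, which is also in the ganglion cell list below, was at 68.1% of WT (adjusted p = 0.00225, limma). *Srrm4*, an activator of neuronal microexons, had 35.1, 35.4 and 32.2 RPKM in WT and 24.3, 24.2 and 23.7 RPKM in *Mll1KO*, without overlap (log2 fold change -0.49, adjusted p = 0.000102, limma). Within the CELF family, *Celf3* was at 75.3% of WT (adjusted p = 0.00236, limma) and *Celf1* at 84.0% (adjusted p = 0.00455, limma). Named after their values were seen, *Celf2* was at 89.5% of WT (adjusted p = 0.0492, limma), and *Celf5* at 90.5% (adjusted p = 0.151, limma) and *Celf6* at 101% (adjusted p = 0.91, limma) were not called. *Mbnl1*, which promotes adult splicing patterns, was at 77.8% of WT (adjusted p = 0.000317, limma), and *Rbm24*, a splicing factor of muscle, had a log2 fold change of -0.27 (adjusted p = 0.00659, limma). *Rbpms2*, *Rbpms*, *Srrm4*, *Celf3*, *Celf1*, *Mbnl1* and *Rbm24* were called in all 15 alternatives. *Nova1* (94.7% of WT, adjusted p = 0.376, limma) and *Elavl1* (97.8% of WT, adjusted p = 0.801, limma), the paralogues of *Nova2* and of the neuronal ELAVL genes, were not called; both were named after their values were seen.

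*Tra2a*, an SR-related factor, was at 81.5% of WT (adjusted p = 0.0242, limma), a call not made without WT sample b (0.0899), *Mll1KO* sample b (0.0726) or *Mll1KO* sample c (0.0813). *Nanos1*, a repressor of translation, had 4.48, 4.18 and 4.24 RPKM in WT and 6.01, 6.43 and 5.98 RPKM in *Mll1KO*, the highest log2 fold change of the 73 (0.43, adjusted p = 0.000523, limma). It was called in all 15 alternatives. *Hnrnph3* was at 121% of WT (adjusted p = 0.0257, limma), but not called with an equal rod sum (0.662) or without WT sample a (0.0792), WT sample b (0.0627), *Mll1KO* sample a (0.0733) or *Mll1KO* sample c (0.0868). *Cpeb1*, a regulator of polyadenylation, was at 122% of WT (adjusted p = 0.0244, limma), but not called with an equal rod sum (0.778) or without WT sample a (0.057), WT sample b (0.0925), *Mll1KO* sample b (0.0711) or *Mll1KO* sample c (0.0843).

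Markers of inner neurons stood as follows beside the lower *Nova2*, *Elavl3*, *Elavl4* and *Rbfox3*. Across all genes, 14.5% were called lower and 8.81% higher. Of 12 ganglion cell genes measured, 11 were lower, and their summed RPKM was 646, 607 and 634 in WT and 503, 456 and 429 in *Mll1KO*. *Sncg*, the most abundant of them, was at 68.2% of WT (adjusted p = 0.000643, limma). Of 8 horizontal cell genes measured 7 were lower, with sums of 211, 207 and 193 RPKM in WT and 131, 137 and 144 RPKM in *Mll1KO*, and the most abundant, *Ndrg1*, was at 57.7% of WT (adjusted p = 5.36e-05, limma). Not all of this list is particular to horizontal cells. In the paper, antibodies to calbindin (*Calb1*) also mark amacrine cells, and those to PROX1 amacrine and bipolar cells. Of 15 amacrine genes 6 were lower and 3 higher, with sums of 743, 736 and 767 RPKM in WT and 702, 700 and 722 RPKM in *Mll1KO*, and the most abundant, *Calb2*, was at 255 RPKM in WT and 180 RPKM in *Mll1KO* (adjusted p = 0.000831, limma). The difference of *Calb2* was larger than that of the amacrine sum, and the list had a median log2 fold change of 0.07, with a mean below WT in 6 of the 15 genes. Of 16 bipolar genes 8 were lower, with sums of 666, 663 and 655 RPKM in WT and 565, 561 and 575 RPKM in *Mll1KO*. The part of these cell types in the result was not tested.

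Of the cell types known for Musashi proteins, 11 of 16 rod genes were higher and 1 lower, with sums of 18727, 17709 and 18216 RPKM in WT and 22496, 23022 and 22252 RPKM in *Mll1KO*. Of 12 cone genes 7 were higher and 1 lower, with sums of 559, 584 and 596 RPKM in WT and 625, 659 and 668 RPKM in *Mll1KO*, and *Gnb3* was at 99.1% of WT (adjusted p = 0.854, limma). Of 15 Muller glia genes 7 were higher and 3 lower, with sums of 1577, 1566 and 1708 RPKM in WT and 1955, 2040 and 2009 RPKM in *Mll1KO*, and *Glul* was at 138% of WT (adjusted p = 0.000317, limma). The median log2 fold change of the Muller glia list was 0.09, with a mean below WT in 7 of the 15 genes; rod and cone genes had medians of 0.25 and 0.27. Their part in the levels of *Msi1* and *Msi2* was not tested.

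Markers of other cells were measured as well. Of 4 astrocyte genes 3 were higher, with sums of 13.9 to 14.7 RPKM in WT and 22.5 to 22.9 RPKM in *Mll1KO*, and *Gfap* was at 220% of WT (adjusted p = 4.26e-05, limma). Of 7 endothelial genes 3 were lower and 1 higher, with sums of 85.2 to 88.7 RPKM in WT and 63.3 to 70.1 RPKM in *Mll1KO*, and *Kdr* was at 59.4% of WT (adjusted p = 0.000115, limma). Of 4 pericyte genes 3 were lower, with sums of 41.0 to 44.8 RPKM in WT and 34.8 to 38.1 RPKM in *Mll1KO*, and *Rgs5* was at 82.8% of WT (adjusted p = 0.00911, limma). Of 4 microglia genes limma called 0, with 0 at an unadjusted p under 0.05, and the sums were 16.7 to 17.2 RPKM in WT and 15.8 to 18.3 RPKM in *Mll1KO*. *C1qb*, the most abundant, was at 90.8% of WT and was the 1 gene of these 4 with a mean below WT (median log2 fold change 0.05). Without *Mll1KO* sample c, *C1qb* was called lower (log2 fold change -0.20, adjusted p = 0.0495, limma). It was also called lower with an equal rod sum (-0.39, adjusted p = 0.000586, limma). The pigment epithelium genes *Ttr* and *Pmel* summed to 132, 80.9 and 201 RPKM in WT and to 64.2, 128 and 64.9 RPKM in *Mll1KO*, with overlap. The lens gene *Cryaa* was at 6.54, 6.61 and 7.51 RPKM in WT and 32.1, 12.4 and 7.28 RPKM in *Mll1KO*, with *Mll1KO* sample a above the others, and *Pcna* of dividing cells was at 92.7% of WT (adjusted p = 0.315, limma). Without any 1 of the 6 libraries, *Nova2* and *Elavl3* were still called.

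RPKM is relative to all reads of a library, so that a rise of abundant genes lowers the values of others. With the libraries brought to an equal sum over 16 rod genes, the median of the log2 fold changes over all genes was -0.30, and all 10 regulators were called lower, as were 83.5% of all genes. Relative to that median, *Nova2* was at -0.28, *Elavl3* at -0.25, *Elavl4* at -0.19 and *Rbfox3* at -0.17, while *Elavl2* was at 0.01, *Msi1* at -0.01 and *Msi2* at 0.11. With the deposited scaling the same distances from the median were -0.28, -0.22, -0.20 and -0.17 for *Nova2*, *Elavl3*, *Elavl4* and *Rbfox3*, and -0.03, 0.02 and 0.14 for *Elavl2*, *Msi1* and *Msi2*. With TMM factors, whose median was 0.00, *Nova2*, *Elavl3* and *Elavl4* were called lower and *Msi2* higher. Of all 11339 genes, 1158 (10.2%) were then called lower and 1262 higher.

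**Figure D2:**
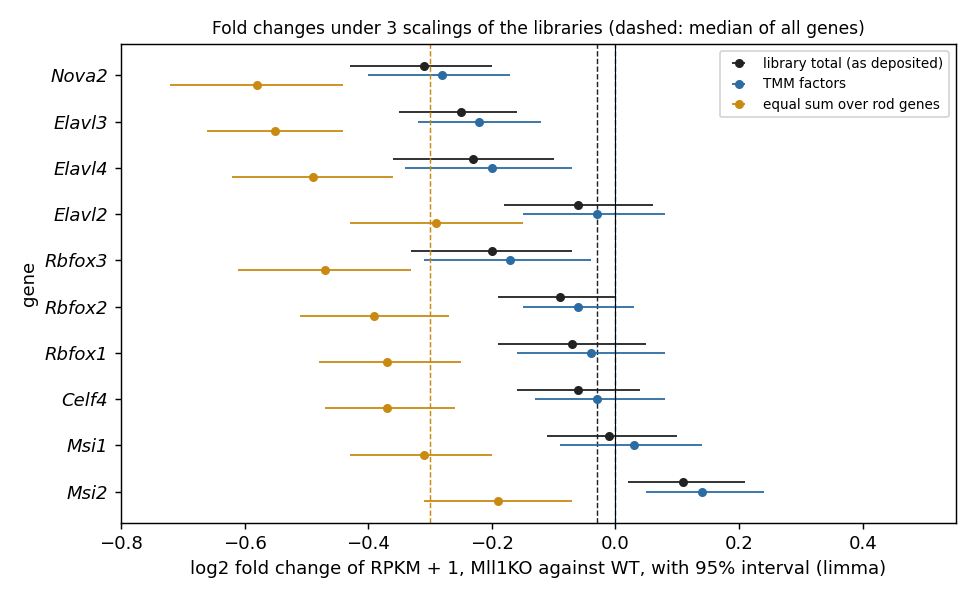
Log2 fold change of each gene on the log2(RPKM + 1) scale with its 95% interval from limma, with the deposited scaling, TMM factors and an equal rod sum; dashed lines mark the median of all genes. The intervals of *Nova2*, *Elavl3*, *Elavl4* and *Rbfox3* lay below 0 in all 3 scalings, and *Msi2* was at 0.11, 0.14 and -0.19. The intervals are not adjusted for the number of genes, and *Rbfox3* was not called with TMM factors (adjusted p = 0.0713, limma).

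MLL1 carries a CXXC domain that binds unmethylated CG dinucleotides. The promoters of *Nova2*, *Elavl3* and *Rbfox3* are shown, 250 bases before to 50 bases after the start, 5′ to 3′ with each CG in capitals. They were chosen because each gene was called lower with the deposited scaling and has 1 RefSeq start. *Rbfox3* was called in only 6 of 15 alternatives. RefSeq promoters of GRCm38.p6 matched by symbol are used here for 7 of the 10 genes. The windows are chr7:18925638-18925937 on the plus strand for *Nova2*, chr9:22051974-22052273 on the minus strand for *Elavl3* and chr11:118760992-118761291 on the minus strand for *Rbfox3*.
Nova2: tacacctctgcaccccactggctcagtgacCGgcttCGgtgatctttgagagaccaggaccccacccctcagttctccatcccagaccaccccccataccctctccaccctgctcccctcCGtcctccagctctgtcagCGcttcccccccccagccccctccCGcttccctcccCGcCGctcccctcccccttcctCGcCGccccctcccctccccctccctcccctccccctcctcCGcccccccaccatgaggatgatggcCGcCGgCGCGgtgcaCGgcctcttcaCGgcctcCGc
Elavl3: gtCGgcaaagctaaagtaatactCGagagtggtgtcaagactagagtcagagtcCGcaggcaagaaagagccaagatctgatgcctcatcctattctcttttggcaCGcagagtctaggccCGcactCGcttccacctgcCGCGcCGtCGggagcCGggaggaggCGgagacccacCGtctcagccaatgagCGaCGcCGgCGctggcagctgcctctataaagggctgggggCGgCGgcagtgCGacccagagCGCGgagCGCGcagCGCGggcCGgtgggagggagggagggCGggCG
Rbfox3: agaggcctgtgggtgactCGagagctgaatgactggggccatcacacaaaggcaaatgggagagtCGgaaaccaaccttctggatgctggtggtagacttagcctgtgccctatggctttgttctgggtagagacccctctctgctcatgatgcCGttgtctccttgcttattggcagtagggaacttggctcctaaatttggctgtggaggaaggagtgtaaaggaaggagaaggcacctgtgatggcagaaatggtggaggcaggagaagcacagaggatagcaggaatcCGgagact
The *Elavl3* window held 29 CG, a number reached by 12.9% of all 32851 promoter windows, and the *Nova2* window held 17 CG, reached by 31.4%. The *Rbfox3* window held 4 CG, reached by 68.6%, and lies 150556 bases inside the longer gene model of GENCODE. *Elavl4*, which was also lower, has 4 windows with 4 to 23 CG. Of the genes that were not called, the 3 windows of *Msi2* held 37 to 39 CG, the 6 windows of *Elavl2* 10 to 27 CG and the 2 windows of *Rbfox1* 3 and 7 CG, and the median over all windows was 7 CG. TATAAA, searched on both strands, was found in the *Elavl3* window and in 13.6% of all windows, and in no other window of these genes. Binding of MLL1 and histone methylation at these windows were not analysed here.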

How the data were processed

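RNA of 3 *Mll1KO* and 3 WT retinal samples at P14 was analysed, grouped by the labelled genotype. According to the Methods and the submitters' processing notes, single-end reads of 50 bases were aligned with STAR 2.0.4b to mouse build mm10 (the Methods write a GRCh38 build), and reads per gene were obtained with featureCounts 1.45 (Subread). The authors filtered genes by CPM and deposited RPKM, which relates reads to gene length and library size. The table also gives the authors' own comparison with edgeR (3.17.9 in the processing notes, another version in the Methods) in 4 columns (log2 fold change, mean log2 CPM, p-value and FDR), which were not used. It had 11404 lines for 11339 gene IDs, 59 of them on more than 1 line with identical values, and 18 symbols that had become dates were replaced through the gene ID.

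Genotypes were compared with limma 3.58.1 in R 4.3.3 on log2(RPKM + 1) over 11339 genes, with a mean-variance trend, Benjamini-Hochberg adjustment, a threshold of 0.05 and no further filter. The deposited values being RPKM, limma on log2 values was the planned test, and the study's own test was not run. Reads were recovered from RPKM as whole numbers within 0.005 reads for 100% of genes. Library sizes were 23836033, 19777205 and 19323512 reads (WT a to c) and 23348923, 19855963 and 17961097 reads (*Mll1KO* a to c), with at least 90 reads of each gene, and all genes had a CPM over 5 in at least 5 samples. Counting errors cover reads only. The fits relative to *Msi1* and to *Msi2* were added after the data were seen.

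The genes and lists (4 of other regulators, 14 of cell types) were chosen with earlier results of these data known. Named were the 10 genes, *Kmt2a*, the called other regulators without overlap (up to 8 in each direction by log2 fold change), the most abundant gene of each cell type list, and genes used to check the tissue; some genes that meet this rule are not reported here. Coordinates, exons and shared stretches of 50 bases came from GENCODE vM21 (GRCm38), and promoters from RefSeq. The 15 alternatives were TMM, RLE and upper-quartile factors, an equal rod sum, limma-voom on the recovered reads, pseudocounts of 0.1 and 5, an RPKM of at least 1 in 3 libraries, the replicate letter as a block, and each of 6 libraries left out. The fit was tested on simulated data. Tables and plots were made with Python 3.11.15 (numpy 2.4.6; pandas 2.3.3), scipy 1.17.1 and, for plots, matplotlib 3.10.9.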

Additional observations from a re-analysis of the deposited data

How the results depend on the processing

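*Nova2*, *Elavl3* and *Kmt2a* were called lower in all 15 alternatives. With an equal rod sum 9690 genes (2.26% of them higher), 10 of the 10 regulators and 70 other regulators were called, since this scaling lowers nearly all values in *Mll1KO*; it turned *Msi2* to -0.19, *Cpeb1* to -0.02 and *Hnrnph3* to -0.04. TMM, RLE and upper-quartile factors each called 1 of the 10 higher, turned *Msi1* to 0.03 and *Gnb3* to 0.02, and changed the share of higher genes among those called from 37.8% to 52.1%, 53.1% and 53.0%. Leaving out 1 library gave 1704 to 2536 called genes against 2643 (1704 without WT sample b, 1757 without *Mll1KO* sample c), 2 to 4 of the 10 lower (2 when WT sample a or else *Mll1KO* sample c was left out) and 9 to 17 other regulators, with fewer samples in each fit. Over the same fits *Msi1* ranged from -0.05 to 0.04 (0.04 without WT sample a, 0.01 without *Mll1KO* sample c) and *Gnb3* from -0.04 to 0.01 (0.00 without WT sample b, 0.01 without *Mll1KO* sample a). The cause of these turns was not tested. Deviations of same-letter samples from their group means correlated at -0.039, -0.19 and -0.007 across genes. With 3 samples per group, these correlations cannot exclude a batch shared by letter. With the letter as a block, 2242 genes, 3 of the 10 regulators (not *Rbfox3*, adjusted p = 0.0544, limma) and 15 other regulators were called. At the lowest read number the counting error of *Elavl4* was 4.86% and that of *Elavl2* 4.74%, beside coefficients of variation of 6.24% and 5.45% among WT and 3.18% and 2.64% among *Mll1KO* samples.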
